A study of Drosophila melanogaster with 6 samples.

Results

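The barcodes described here are the 1041 droplets of a Drosophila melanogaster testis single-cell RNA series in which 6000 or more genes had at least 1 unique molecular identifier (UMI, the tag that counts each captured RNA molecule once). They were chosen by gene count alone from all 31832 barcodes of the 6 libraries, of which they are 3.27%. They carried 66.1% of all UMIs. The study's own filter kept 200 to 6000 genes per cell, and its annotation of 26549 cells into 17 types holds none of these barcodes.

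Each library came from about 100 pairs of dissected adult testes that were pooled, so no value belongs to a single fly. Flies were raised at 25 °C, and spermatids were depleted from the cell suspensions to favour early germ cells and cyst cells. Each library came from males aged 3–5 days, 6–8 days or 9–11 days, with 1 library per genotype and age. The 3 ages stand as the 3 libraries of a genotype, so the spread within a genotype includes age. The wild-type males were of the Oregon R strain. The chinmoST libraries carry the strain label ChinmoST and a genotype label that names Sod1[X-39] and e[1] over the balancer TM3 with the markers Sb[1] and Ser[1], so the chinmoST allele cannot be told apart from the other alleles and the strain background. Below, values in a row follow age, youngest first, wild-type before chinmoST. CPM is a gene's UMIs in a sum of barcodes, scaled to 1000000 UMIs. These UMIs count 3′ ends, not length.

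In the fly testis, germline stem cells (GSCs) attach to a cluster of somatic hub cells and are enclosed by cyst stem cells (CySCs). Their daughters divide as spermatogonia, then become spermatocytes, which grow into the largest cells of the organ. Spermatocytes transcribe most of the genes that meiosis and sperm formation need, and spermatids reshape into sperm largely on stored transcripts. chinmo encodes a transcriptional regulator that keeps CySCs male, and the chinmoST allele lowers it in those cells. The questions asked of the 1041 barcodes were which annotated cells they resemble, and how they differed between wild-type and chinmoST testes.

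There were 231, 138 and 128 such barcodes in the 3 wild-type libraries, against 122, 222 and 200 in chinmoST. They were 4.84%, 2.76% and 2.56% of the wild-type barcodes, against 1.73%, 4.44% and 4.0% of those of chinmoST. The 95% binomial intervals of these shares, which cover counting error only, ran from 1.44–2.06% in chinmoST at 3–5 days to 4.25–5.49% in wild-type at 3–5 days. The groups overlapped, with means of 3.39% ± 1.26 (SD, n = 3) and 3.39% ± 1.46 (n = 3; exact two-sided permutation p = 1.0). With 3 libraries against 3 such a test cannot go below 0.1. The share of a library's UMIs in these barcodes was 61%, 66.4% and 67.9% for wild-type, against 47.4%, 76.4% and 70.3% for chinmoST.

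Barcodes just inside the limit were deeper than those just outside it, and of the same kinds. The lowest of the 1041 had 6005 genes and the highest barcode below the limit had 5989. The 203 barcodes with 6000 to under 6500 genes had a median of 127045 UMIs, and the 281 with 5500 to under 6000 genes had 91487. Of the latter, 276 were in the study's annotation, 104 of them as GSCs/spermatogonia and 77 as early spermatids. Of the former, 74 were nearest to GSCs/spermatogonia and 59 to early spermatids by the measure described below. Across all 1041 the median was 259025 UMIs and 7494 genes, against 2694 UMIs in the annotated cells. A mitochondrial share of 10% or more, the study's other limit, was reached by 3 of the 1041. No doublet caller was run on them, so any barcode may hold RNA of more than 1 cell.

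**Figure D1:**
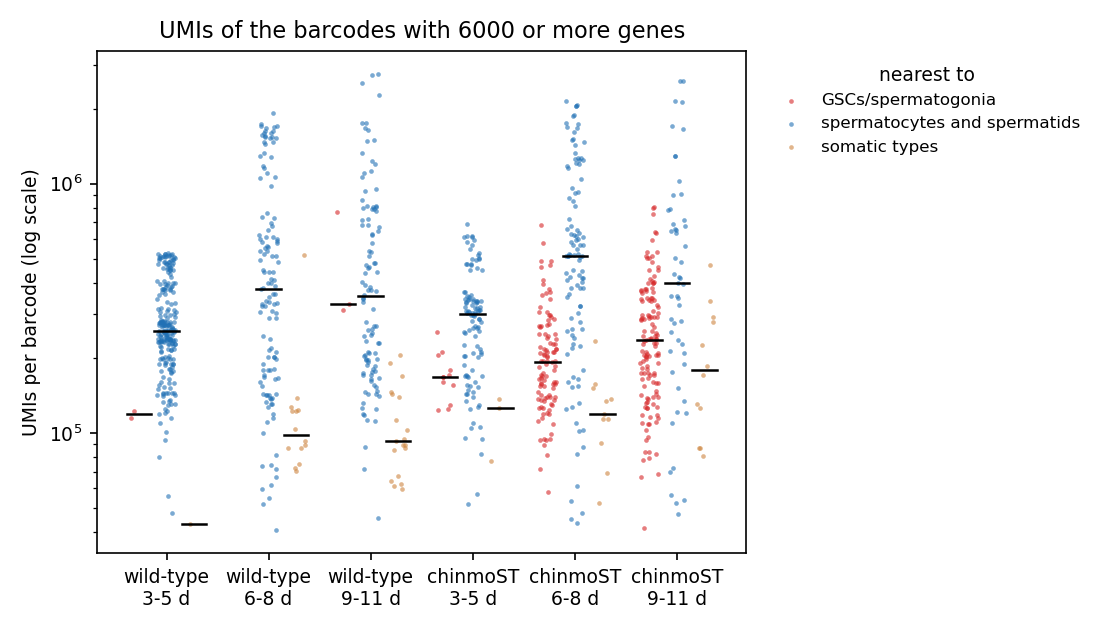
UMIs per barcode (log scale) for each of the 1041 barcodes with 6000 or more genes, by library and by the class of the annotated type nearest to it. Black lines are medians. All 78 barcodes above 1000000 UMIs were nearest to a spermatocyte or spermatid type, and none was in either library of 3–5 days.

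Many of these barcode sequences were present in more than 1 library. Of the 1041, 383 (36.8%) also occurred in another library, against 0.520% of the 30791 other barcodes (160) that recurred among themselves. There were 384 pairs, none with 6000 or more genes on both sides. All but 3 pairs fell between wild-type and chinmoST at 3–5 days, between wild-type at 6–8 and 9–11 days, or between chinmoST at 6–8 and 9–11 days.

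The largest set was 174 of the 231 wild-type barcodes of 3–5 days (75.3%), found again in chinmoST at 3–5 days. The shared barcodes were deep, with a median of 493125 UMIs against 195243 in the others. In wild-type at 6–8 days all but 1 of the 56 barcodes with 441152 or more UMIs recurred at 9–11 days, while none of the 82 below did. In the later chinmoST libraries 40 of the 41 (6–8 days) and 33 of the 59 (9–11 days) barcodes at or above the lowest shared depth recurred, and at 3–5 days 174 of 212 in wild-type and 45 of 90 in chinmoST. The copy in the other library was shallow. Its UMIs were a median of 0.749% of the first barcode's in chinmoST at 3–5 days, 1.36% in the reverse direction, 0.344% in both directions between the later wild-type libraries, and 0.215% and 0.235% between the later chinmoST libraries.

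All 384 copies were in the study's annotation. Late spermatocytes were named for 257 of them, which is 6.64% of that type over all libraries. In chinmoST at 3–5 days they were 144 of 518 late spermatocytes (27.8%), against 1.40% to 7.74% in the other libraries. A set of 6 genes (AstCC, CG43401, CG45072, lncRNA:CR40465, lncRNA:CR43422 and lncRNA:CR44994) was picked for being at least 50-fold higher in the wild-type than in the chinmoST library of 3–5 days. Summed, these genes stood at 288 CPM in the 174 wild-type barcodes, 128 CPM in the 174 chinmoST copies (66 UMIs) and 1.35 CPM in 2082 other annotated cells of the same chinmoST library. The copies thus stood at 44.3% of the level of the wild-type barcodes, and the other cells at 0.468%. Of the 383, 367 were nearest to a spermatocyte or spermatid type by the measure described below, 15 to GSCs/spermatogonia and 1 to a somatic type. The type counts, the tested shares and levels, the bands of gene count and the leading gene lists are also given without them, but not the thinned gene counts. The 384 copies stayed among the annotated cells that gave the type profiles and annotated depths. The classes were thus not set anew without the copies.

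**Figure D2:**
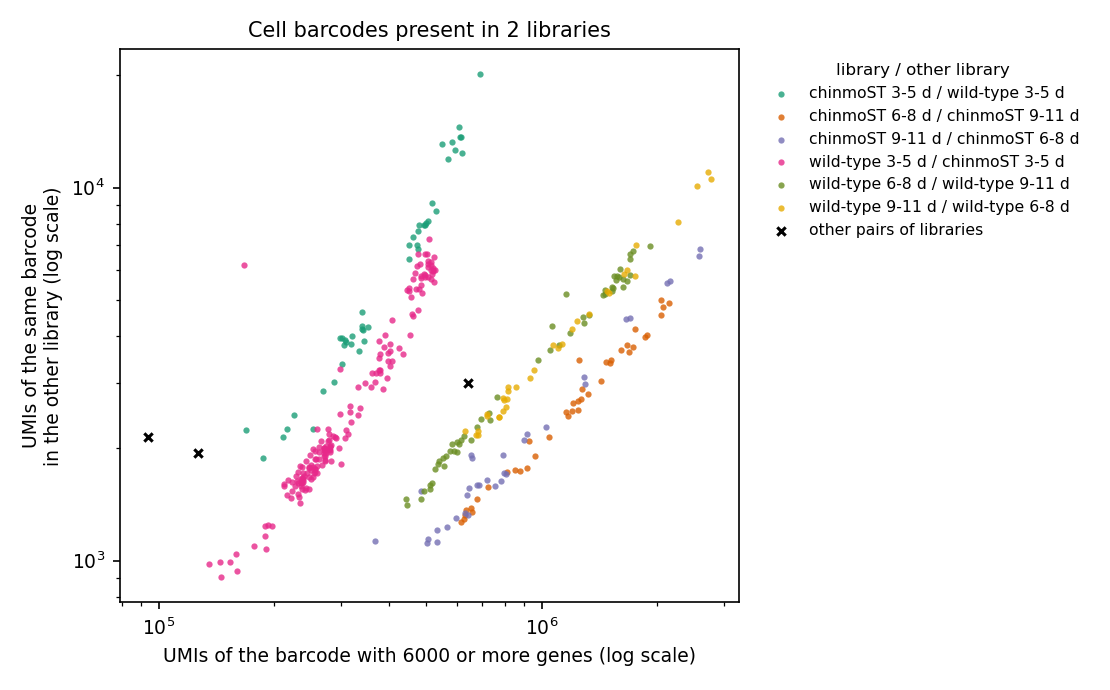
UMIs of each shared barcode in the library where it has 6000 or more genes (x axis, log scale) against its UMIs in the other library (y axis, log scale), 384 pairs. In the 6 directions that hold 381 of the pairs the median ratio ran from 0.215% to 1.36%. Ratios were spread most at 3–5 days, from 0.564% to 3.72% for the wild-type barcodes.

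To ask which cells these were, each barcode was set beside the summed profile of every annotated type. It was given the type with the highest Spearman correlation of CPM. Profiles came from the barcode's own library, or from all libraries for types under 20 cells there. Annotated GSCs/spermatogonia numbered 18, 6 and 4 in the wild-type libraries, so all 3 used the sum over libraries for that type. That sum held 422 chinmoST and 28 wild-type cells. The chinmoST libraries, with 49, 211 and 162 such cells, used their own. Most barcodes were nearest a germline type. Early spermatids were nearest for 387 barcodes (37.2%), GSCs/spermatogonia for 257 (24.7%) and late spermatocytes for 138 (13.3%). Late spermatids followed with 78, intermediate spermatocytes with 64 and early spermatocytes with 57. Only 60 were nearest to a somatic type: 33 to hub cells, 15 to intermediate cyst cells, 9 to CySCs and 3 to early cyst cells. None was nearest to late cyst cells, the second most numerous annotated type at 5411 cells, nor to hemocytes, muscle, pigment, terminal epithelium, male gonad associated epithelium or the somatic cells at the testis base. Without the shared barcodes early spermatids were nearest for 251, GSCs/spermatogonia for 242 and late spermatocytes for only 25.

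The gap between types was wider for GSCs/spermatogonia than within the later germline. The median gap between the best and the next correlation was 0.207 for the barcodes nearest GSCs/spermatogonia, and 0.00543 to 0.0558 for the spermatocyte and spermatid types, so those 5 types are mostly described together as the late germline. The same measure was checked on 1241 annotated cells of 4000 to under 6000 genes. It returned the annotated type for 85.7% and the same class (GSCs/spermatogonia, late germline or somatic) for 96.4%. For cells annotated as GSCs/spermatogonia it did so in 207 of 208. In the other direction, 9 annotated early spermatocytes were also returned as GSCs/spermatogonia, and only 26 of 42 early spermatocytes got their own type.

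The gene limit took very different shares of the annotated types. Adding the barcodes nearest each type to its annotated cells, 257 of 707 for GSCs/spermatogonia (36.4%) lay above it. Above the limit the type is the nearest by correlation only. The share was 22.9% for hub cells (33 of 144), 7.06% for intermediate spermatocytes, 5.82% for early spermatids, 3.44% for late spermatocytes, and 0.426% for intermediate cyst cells. By library, 10.0%, 0% and 42.9% of the wild-type GSCs/spermatogonia lay above it, out of 20, 6 and 7, against 19.7%, 33.2% and 45.5% in chinmoST. In each wild-type library another type had a higher share, early spermatocytes at 3–5 days (19.7%) and hub cells at the later ages (52.4% and 47.4%).

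Marker genes mostly followed the assigned class, which their own levels helped to set. vas, an RNA helicase of the germline, stood at 123 CPM in the summed barcodes nearest GSCs/spermatogonia and at 1.7 to 13.7 CPM in the other 5 germline classes. aub, a piRNA-binding Argonaute protein, stood at 146 CPM against 1.1 to 31.1 CPM. sa, a testis TAF that the study lists as a marker of intermediate spermatocytes, was at 354 CPM in the barcodes nearest early spermatocytes. In the barcodes nearest GSCs/spermatogonia it was at 16.9 CPM. fzo, the mitofusin that fuses spermatid mitochondria, was at 253 CPM in the barcodes nearest intermediate spermatocytes and 8.0 CPM in those nearest early spermatids. d-cup, transcribed after meiosis, was highest in those nearest late spermatids, at 333 CPM.

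The barcodes were far deeper than annotated cells of the type they resembled. Median UMIs were 205095 against 13843.5 in annotated GSCs/spermatogonia (14.8-fold), 343992 against 1572 for early spermatocytes (219-fold) and 259025 against 2750 for early spermatids (94.2-fold). For hub cells the ratio was lowest, 118861 against 20797 (5.72-fold). When every cell was thinned to 5000 UMIs, leaving out shallower ones, gene counts came closer together, with gaps left in some types. In wild-type, median genes were 1971 in barcodes nearest early spermatids against 1828 in the annotated cells. They were 1977 against 1609 for intermediate cyst cells and 1690.5 against 1825.5 for hub cells. Barcodes nearest late spermatocytes in wild-type had a median of 2063.5 genes, against 2057 in 323 annotated late spermatocytes, 1783 of that type being too shallow. Unthinned, these medians were 8219 and 2658. In chinmoST, barcodes nearest GSCs/spermatogonia had 1798 genes thinned and 6891 unthinned, against 1656 and 5335 in 242 annotated cells, with 180 left out.

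RNA restricted to cyst cells was low in the germline barcodes. In the testis each germline clone is enclosed by a pair of cyst cells, so the summed level of 504 genes that are at least 20-fold higher in some annotated hub or cyst type than in any germline type was measured in each barcode, as a percentage of its level in annotated intermediate cyst cells of that library. The median was 0.605% in barcodes nearest GSCs/spermatogonia, 0.717% in the late germline and 85.1% in the somatic ones. A level above 10% was reached by 3 of 257, 12 of 724 and all 60 respectively. These genes are among those whose correlation set the class, so this split between classes is partly fixed by the assignment. Within the somatic barcodes the median ran from 17.0% for those nearest CySCs to 107% for those nearest hub cells. Over all barcodes of a library the level was 2.25%, 3.18% and 3.34% for wild-type, against 3.11%, 1.94% and 1.98% for chinmoST. The groups overlapped (exact two-sided permutation p = 0.2, adjusted over the 8 single-value tests 0.6). Without the shared barcodes the difference was −3.87 percentage points against −0.585 with them (exact p = 0.4), and the medians were 0.619%, 0.443% and 85.1%.

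The makeup differed most between genotypes in the barcodes nearest GSCs/spermatogonia. They numbered 2, 0 and 3 in wild-type, against 12, 105 and 135 in chinmoST. As a share of the barcodes with 6000 or more genes this was 0.866%, 0% and 2.34% for wild-type, against 9.84%, 47.3% and 67.5% for chinmoST. All 3 chinmoST libraries lay above all 3 wild-type libraries, and each age showed the same direction. The difference was 40.5 percentage points, from 1.07% ± 1.19 (SD, n = 3) to 41.5% ± 29.3 (n = 3), with the smallest p the exact permutation test allows, 0.1, and 0.6 after adjustment. Without the barcodes present in a second library it was 46.5 points, and with a limit of 7000 genes 33.0 points. Annotated GSCs/spermatogonia differed in number too, with 28 in wild-type against 422 in chinmoST. These shares are of barcodes above the limit, not of all cells. For wild-type the GSC/spermatogonia profile was the sum over libraries, and for chinmoST it was each library's own.

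The late germline filled most of the rest. Early spermatids were nearest for 44.6%, 50.7% and 59.4% of the wild-type barcodes and 54.1%, 18.5% and 15.5% of the chinmoST barcodes. The chinmoST library of 3–5 days lay among the wild-type values (exact two-sided permutation p = 0.3, adjusted 0.6). Late spermatocytes were nearest for 29.9%, 5.80% and 14.8% against 18.9%, 3.60% and 5.50%, lower in chinmoST at each of the 3 ages, with overlapping groups (p = 0.5 by the same exact test). Shares nearest early and intermediate spermatocytes and late spermatids also overlapped, with exact p from 0.3 to 0.8. Intermediate spermatocytes were also lower in chinmoST at all 3 ages. Without the shared barcodes the differences were −32.1 percentage points for early spermatids, −1.12 for late and −4.0 for intermediate spermatocytes (exact p = 0.3, 0.7 and 0.1). In these shares, the sum to 100% means that a higher share of one type lowers the others.

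Within chinmoST, the barcodes nearest GSCs/spermatogonia were set beside annotated GSCs/spermatogonia below the limit. Below 6000 genes the class is the study's annotation, and above it the nearest type by correlation. What part this change of definition has in the levels was not tested. Annotated GSCs/spermatogonia and these barcodes were placed in bands of gene count, with 224 cells below 4000 genes, 40 from 4000 to under 5000, 158 from 5000 to under 6000, then 138 barcodes from 6000 to under 7000 and 114 of 7000 or more. Levels are CPM of the 3 libraries pooled, given in that order as a description. vas stood at 223, 218, 218, 186 and 84.8 CPM, and aub at 190, 220, 248, 198 and 114 CPM. zpg, a germline gap junction protein, stood at 131, 189, 95.3, 79.7 and 30.8 CPM. All of these were lowest in the barcodes with most genes.

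Genes of early spermatocytes had the opposite order above 5000 genes. Rbp4, an RNA-binding protein of young spermatocytes, stood at 65.9, 37.5, 37.6, 158 and 396 CPM. kmg, a zinc-finger protein that acts in spermatocytes on promoter choice, stood at 21.2, 9.81, 10.8, 38.0 and 62.4 CPM. wuc, a subunit of the testis meiotic arrest complex tMAC, stood at 10.1, 6.93, 5.34, 39.7 and 179 CPM. The testis TAF gene nht gave 23.5, 16.2, 16.1, 63.2 and 154 CPM. bam, which ends spermatogonial division, was highest in the band from 5000 genes with 91.7 CPM and stood at 31.6 CPM in the last band. chinmo itself stayed between 392 and 519 CPM in all bands.

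The same order held in each chinmoST library for Rbp4. From 5000 genes upward it stood at 150, 484 and 1092 CPM at 3–5 days, 33.1, 140 and 347 CPM at 6–8 days and 26.3, 138 and 405 CPM at 9–11 days. vas stood at 194, 148 and 72.8 CPM, 226, 217 and 81.0 CPM, and 218, 173 and 87.8 CPM in the same libraries. aub was an exception at 3–5 days, with 167, 160 and 171 CPM, where the last bands hold only 8 and 4 barcodes. Without the shared barcodes, which are 4 of 138 and 10 of 114, the last bands stood at 162 and 369 CPM for Rbp4 and at 186 and 88.3 CPM for vas. Early spermatocytes were the next nearest type for 11 of the 138 and 65 of the 114, so that the last band lay closer to that type. In wild-type only 5 barcodes are of this class, with Rbp4 at 207 CPM in 3 barcodes and 463 CPM in 2.

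Spermatid transcripts did not share a single pattern across these bands. ocn, a testis protein gene, stood at 506, 119, 51.2, 149 and 736 CPM, and Mst84Db, a sperm tail gene, at 604, 141, 41.5, 42.2 and 185 CPM. CG9920, the gene with the highest CPM over all 1041 barcodes, stood at 716, 149, 52.1, 48.6 and 51.1 CPM. In the chinmoST late germline barcodes ocn was at 4582 CPM and CG9920 at 6024 CPM, so the ratio of ocn to CG9920 in the last band differed from the ratio in that class. What part RNA from other cells has in these levels was not tested. tj, a CySC and cyst factor, stayed between 0 and 0.13 CPM in all 5 bands. Other markers that the study lists for somatic types were not near 0. Pdcd4, listed for intermediate cyst cells, stood at 1445, 1880, 2060, 1769 and 802 CPM. Among annotated types, however, Pdcd4 was highest in GSCs/spermatogonia. InR, listed for hub cells and CySCs, stood at 304, 205, 352, 256 and 167 CPM.

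**Figure D3:**
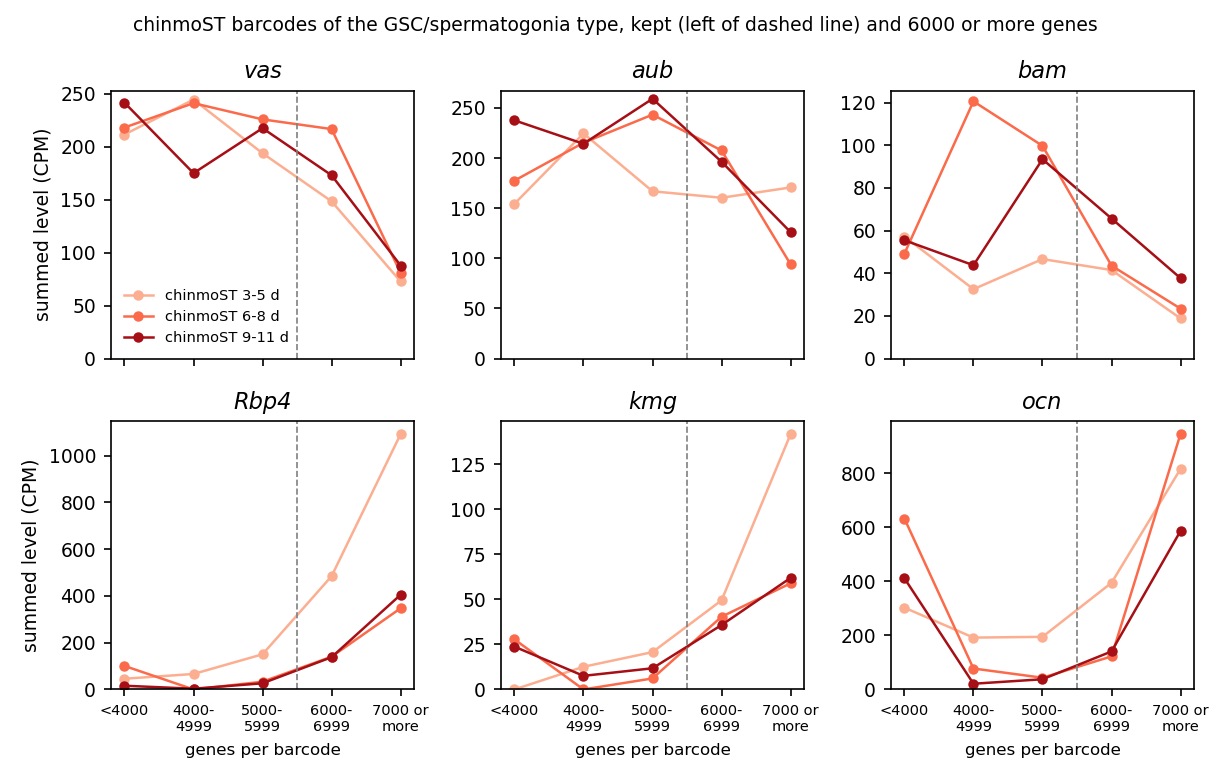
Summed levels (CPM, y axis) of 6 genes by gene count per barcode (x axis) for chinmoST cells of the GSC/spermatogonia type, 1 line per library. Left of the dashed line are annotated cells and right of it the barcodes with 6000 or more genes. Rbp4 and kmg are highest, and vas lowest, at 7000 or more genes in all 3 libraries.

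The 252 chinmoST barcodes nearest GSCs/spermatogonia thus differed in level from the 422 annotated ones of those libraries, as a description. Rbp4 was at 308 against 39.3 CPM, kmg at 53.4 against 11.3 CPM, and bam at 41.1 against 83.9 CPM. The piRNA pathway genes summed to 1074 against 1388 CPM, and the cytoplasmic ribosomal protein genes to 325585 against 391306 CPM. ovo, a germline zinc-finger factor, was at 31 against 37.1 CPM, and chinmo at 500 against 450 CPM.

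The 60 somatic barcodes did not hold all the markers of their nearest type. In the 33 nearest hub cells, org-1, a hub transcription factor, was at 9.8 CPM against 21.1 CPM in annotated hub cells, and Fas3, a hub adhesion protein, at 75.8 against 137 CPM. upd1, the ligand hub cells send to stem cells, had a UMI in only 2 of the 33. Their 10 leading genes held no hub marker and began with CG18628, a marker of male gonad associated epithelium, of which 99% of UMIs came from 1 barcode. These barcodes are called hub-nearest for their correlation only. In the 9 nearest CySCs, tj was at 210 CPM. In that set Obp51a, an odorant-binding protein gene, had all of its UMIs in 1 barcode, and another had 22.0% of its UMIs from CG18628. In the 3 nearest early cyst cells Wnt4, one of that type's markers, had no UMI.

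The comparison between genotypes used UMIs summed over the 1041 barcodes of each library, so a sum follows the makeup just described. The edgeR quasi-likelihood test called 118 of 12800 genes (0.922%) at an adjusted p under 0.05. Of these 14 (0.109% of genes) rose in chinmoST and 104 (0.812%) fell. Without an adjustment 2626 genes (20.5%) were higher and 677 (5.29%) lower at p under 0.05. The number called depended on the libraries and the test used. Without the chinmoST library of 3–5 days 4155 genes were called, 3254 of them higher, while leaving out any other library gave 31 to 133. DESeq2 called 2151 genes, 1698 of them higher. In the chinmoST library of 3–5 days only 9.84% of the barcodes were nearest GSCs/spermatogonia. What part this has in the number called was not tested. The median log2 fold change over all genes was 0.12 (−0.01 with the RLE scaling).

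Genes that rose were mostly carried by the barcodes nearest GSCs/spermatogonia. The 10 that rose most, among those above 10 CPM whose libraries did not overlap, are given here. CG4570 stood at 0.335, 0.233 and 0.789 CPM in wild-type against 7.15, 12.3 and 33.4 CPM in chinmoST (log2 fold change 5.26 ± 0.83 SE, edgeR adjusted p = 0.0302). Oxp, a relative of heterochromatin protein 1, stood at 0.503, 0.246 and 0.60 against 5.36, 11.9 and 23.1 CPM (4.87 ± 0.73, edgeR adjusted p = 0.0247). Chrac-14, a histone-fold subunit of a chromatin remodeller, stood at 1.37, 0.547 and 0.963 against 11.4, 11.7 and 26.9 CPM (4.08 ± 0.59). In all 3 genes the lowest chinmoST library was that of 3–5 days. Of their chinmoST UMIs, 96.1%, 97.0% and 93.1% lay in barcodes nearest GSCs/spermatogonia.

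Host genes of small nucleolar RNAs and a histone chaperone were in the same set. Uhg8 stood at 0.899, 0.807 and 1.01 CPM in wild-type against 4.73, 23.4 and 53.6 CPM in chinmoST (4.89 ± 1.04). Uhg3 stood at 1.34, 0.835 and 1.36 against 7.0, 14.1 and 32.9 CPM (3.91 ± 0.70). Nap1, which carries histones to DNA, stood at 54.3, 31.3 and 57.5 against 167, 423 and 802 CPM (3.25 ± 0.73). Between 86.6% and 92.7% of their chinmoST UMIs lay in barcodes nearest GSCs/spermatogonia. With age as a block these calls were lost, with edgeR adjusted p of 0.074, 0.060 and 0.058.

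The other 4 had smaller shares of their chinmoST UMIs in barcodes nearest GSCs/spermatogonia. The share was still 83.8% for CG14545 and 65.1% for CG34031. CG14545 stood at 2.42, 2.48 and 2.49 against 13.6, 19.5 and 35.3 CPM (3.19 ± 0.41), and CG34031 at 1.93, 1.59 and 1.34 against 9.19, 11.6 and 18.0 CPM (2.97 ± 0.34). Both lost the call with age as a block (edgeR adjusted p = 0.051 and 0.068). CtsL1, the lysosomal protease cathepsin L, stood at 37.6, 47.0 and 31.8 against 146, 151 and 182 CPM (2.02 ± 0.19, edgeR adjusted p = 0.0151), and 39.7% of its chinmoST UMIs lay in somatic barcodes. CG15422 stood at 0.168, 0.0958 and 0.189 against 10.7, 1.71 and 25.5 CPM (6.37 ± 1.2), with 94.3% of chinmoST UMIs in somatic barcodes and 49.0% in 1 barcode.

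Restricted to the barcodes nearest spermatocytes and spermatids, few of these calls remained. There 4 of 12360 genes rose (0.0324%) and 143 fell (1.16%), while 9.6% of genes passed an unadjusted p of 0.05. Of the 14 genes that rose, 2 were called again. Those were Uhg8 (log2 fold change 1.88, edgeR adjusted p = 0.045) and CG34031 (2.06, edgeR adjusted p = 0.029). The other 8 of the 10 had fold changes from 0.55 to 1.76 on the log2 scale and edgeR adjusted p from 0.220 to 0.960. Without the barcodes that recur in a second library, none of the 14 was called, with edgeR adjusted p from 0.055 to 0.103 for the 10. Their fold changes stayed between 2.09 and 6.51 on the log2 scale, against 2.02 to 6.37 with them.

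Genes that fell were close to absent from chinmoST, also within the late germline. Over the 104, the median log2 fold change was −5.06, from a median wild-type level of 5.61 CPM, and 84 were under 1 CPM in every chinmoST library. Non-coding RNA genes were 44 of the 104. Among the late germline barcodes alone all 104 were lower and 98 were called again. Without the recurring barcodes 89 could be tested, all of them lower, and 54 were called. They lay on chromosome arms 2L (37), 3L (27), 2R (25) and 3R (13) and on X (2). The spread of all tested genes over the arms, and how many were non-coding, is not given here. These counts thus show no excess or lack.

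AstCC, which encodes an allatostatin neuropeptide (dm6 2L:11083459-11085229), stood at 57.0, 48.1 and 58.9 CPM in wild-type against 0.0864, 0.0521 and 0.155 CPM in chinmoST (−9.13 ± 0.37, edgeR adjusted p = 0.00099). This was 10985 UMIs against 19. CG43401 (2L:1428474-1429159) stood at 49.6, 49.2 and 55.6 against 0.115, 0.0521 and 0.0702 CPM (−9.44 ± 0.26, edgeR adjusted p = 0.00092), or 10378 UMIs against 14. lncRNA:CR44994 stood at 80.2, 66.9 and 61.4 against 0.490, 0.344 and 0.253 CPM (−7.64 ± 0.28). In each of them the lowest wild-type library was above 40 CPM and no chinmoST library reached 1 CPM. lncRNA:CR40465 (2L:20253816-20254449) stood at 31.7, 29.1 and 31 CPM with no UMI in chinmoST. Against a floor of 3 UMIs over the chinmoST group it was at least 2055-fold lower. CG13047 (3L:16284680-16285396) stood at 13.9, 14.7 and 8.68 CPM, also with no UMI in chinmoST, and was at least 845-fold lower.

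The other 5 of the 10 that fell most were lncRNA:CR43263, lncRNA:CR44846, CG45072, CG34445 and lncRNA:CR46206. Their log2 fold changes ran from −9.45 to −6.93. All 10 were called under every alternative that was run, with an adjusted p of at most 0.041. Annotated cells showed the same direction. In annotated early spermatids AstCC stood at 64.8, 48.6 and 39.7 CPM in wild-type against 0.18, 0 and 0.28 CPM in chinmoST, and CG43401 at 57.4, 68.1 and 75.1 against 0.09, 0 and 0 CPM.

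Germline stem cell markers had higher values in chinmoST, without a call by the edgeR test. Of the 6 markers of GSCs/spermatogonia, 5 had no overlap between genotypes (18.4% of all genes were higher without overlap, and 10.4% lower). Their median log2 fold change was 3.14, against 0.12 over all genes. vas stood at 4.71, 2.87 and 5.68 CPM in wild-type against 9.68, 32.6 and 62.6 CPM in chinmoST (2.95 ± 0.85, edgeR adjusted p = 0.07). nanos, a translational repressor in stem cells, stood at 1.23, 1.08 and 1.53 against 2.22, 19.1 and 41.6 CPM (4.01 ± 1.27). All 6 passed an unadjusted p of 0.05, and all 6 were called by DESeq2 and by edgeR without the chinmoST library of 3–5 days. In the late germline alone the median over the 5 that could be tested was 0.48, and vas was at 0.06.

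Ribosomal protein genes behaved alike. Of 91 cytoplasmic ribosomal protein genes tested, 86 were higher without overlap and none was called, with 87 higher at an unadjusted p of 0.05. DESeq2 called 82 of them, and edgeR without the chinmoST library of 3–5 days 87. The median log2 fold change was 2.68, and 0.48 in the late germline alone. Without the shared barcodes the medians of the GSC/spermatogonia markers, these genes and the piRNA pathway genes were 3.10, 2.68 and 2.45, with none called. The summed level of the ribosomal protein genes was 23238, 15663 and 16745 CPM in wild-type against 38281, 92314 and 188333 CPM in chinmoST. In the late germline alone it was 22102, 12303 and 7211 against 19382, 20434 and 15214 CPM, where the groups overlapped. RpS28a and RpS28-like were the exceptions, lower without overlap. Mitochondrial ribosomal protein genes had a median of 0.80, with 29 of 72 higher without overlap and none called (20 at an unadjusted p of 0.05, 3 by DESeq2). Over all 12800 genes, 18.4% were higher without overlap and 20.5% at that p, and DESeq2 called 1698 higher.

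The piRNA pathway genes and several sex determination genes also had higher values. Of 12 piRNA pathway genes 7 were higher without overlap and none was called (10 at an unadjusted p of 0.05, 8 by DESeq2), with a median of 2.34, and 0.30 in the late germline alone. Over all 12800 genes, 18.4% were higher without overlap and 20.5% at that p. rhi, which marks piRNA clusters, stood at 3.59, 1.53 and 2.23 against 6.02, 31.6 and 94.1 CPM. Of 14 genes of sex determination and chinmo, ovo alone was called. It stood at 0.02, 0.01 and 0.08 CPM in wild-type against 0.69, 9.72 and 13.6 CPM in chinmoST (7.73 ± 1.41, edgeR adjusted p = 0.04), with 97.3% of chinmoST UMIs in barcodes nearest GSCs/spermatogonia. It was one of the 14 genes that rose, with Nazo, Drep2 and lncRNA:CR46252 outside the 10 above. chinmo stood at 38.9, 59.8 and 43.7 against 53.5, 184 and 278 CPM (1.84 ± 0.73, edgeR adjusted p = 0.09), and at 0.41 on the log2 scale in the late germline alone. The mRNA of Sxl, the female switch gene, stood at 2.91, 5.88 and 7.28 against 4.41, 18.2 and 38.8 CPM, with overlapping groups.

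**Figure D4:**
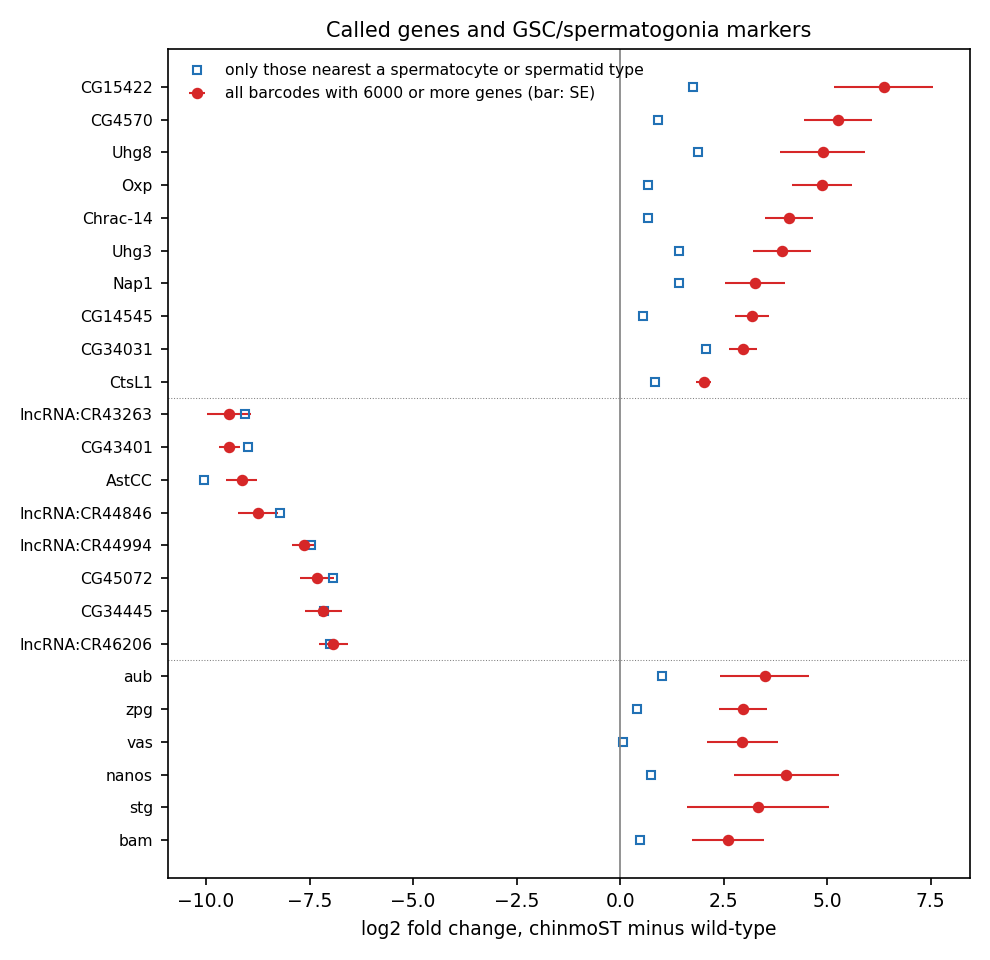
Log2 fold change, chinmoST minus wild-type, of the genes that rose or fell most and of the 6 GSC/spermatogonia markers, in all barcodes with 6000 or more genes (red, bar: SE, 3 libraries per genotype) and in those nearest a spermatocyte or spermatid type (blue). CG13047 and lncRNA:CR40465, with no UMI in chinmoST, are not drawn, and stg was not tested in the second set. Blue squares of the genes that rose and of the markers lie between 0.06 and 2.06, while those of the genes that fell stay near the red points.

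Genes of meiosis and sperm formation differed less. The 12 Mst and late sperm genes, whose products pack the sperm tail and nucleus, had a median log2 fold change of −0.50, and −0.14 in the late germline alone. Among them, Mst84Dc and Mst98Ca, were lower without overlap, and none was called by edgeR (1 at an unadjusted p of 0.05) or by DESeq2. Without the chinmoST library of 3–5 days edgeR called 4 of them lower, against 901 lower of all 13230 genes tested there. Mst84Dc stood at 1895, 2430 and 2604 against 1723, 1466 and 1026 CPM (−0.75 ± 0.24, edgeR adjusted p = 0.16). The late spermatid markers had a median of −0.74, with schuy, p-cup and r-cup of the 8 lower without overlap. The 11 genes of spermatid mitochondria and tail had a median of −0.56 with 5 lower without overlap, and the 6 sperm chromatin genes −0.43 with none. Over all 12800 genes, 10.4% were lower without overlap and 5.29% at an unadjusted p of 0.05. Without the shared barcodes the 4 medians were −1.02, −0.75, −1.14 and −0.94, with none called.

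The regulators of spermatocyte transcription lay closer to the all-gene median. The 14 tMAC and testis TAF genes had a median of 0.48, and only achi was higher without overlap. The 14 genes of the meiotic cell cycle had 0.15, with nclb and bam higher without overlap. The 11 Y-linked fertility genes tested, large genes that spermatocytes transcribe, had −0.45. Markers of early, intermediate and late spermatocytes and of early spermatids had medians of 0.65, −0.22, −0.45 and −0.40. None of these genes was called by edgeR. Past an unadjusted p of 0.05 were 2 genes of the first set, 2 of the second and 1 of the third, and DESeq2 called 1, 2 and 1. Over all 12800 genes, 3303 passed that p and DESeq2 called 2151, while 18.4% were higher and 10.4% lower without overlap.

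Somatic and signalling lists gave no calls by edgeR. Among 13 insulin pathway genes the median was 0.34 with 4 higher at an unadjusted p of 0.05 and 3 by DESeq2. Over all 12800 genes, 20.5% were higher at that p and DESeq2 called 1698 higher, while 18.4% were higher and 10.4% lower without overlap. InR, the insulin receptor, stood at 2.04, 8.01 and 13.5 against 5.79, 51.9 and 121 CPM. Of 13 cyst lineage factors, so, a homeodomain factor of cyst cells, was lower without overlap at 13.6, 33.2 and 32.6 against 3.46, 5.73 and 3.29 CPM (−2.69 ± 0.46, edgeR adjusted p = 0.06). It was at −2.41 in the late germline alone, and was called with the RLE scaling and by DESeq2. Of 17 ovarian follicle genes 9 were tested, with a median of 0.61, and Arc1 alone was higher without overlap. Hub and CySC markers had medians of 0.33 and 2.05, with 1 of 5 and 3 of 9 higher both at an unadjusted p of 0.05 and by DESeq2. Heat shock genes had 0.61, transcripts of the mitochondrial genome 0.90, and the markers of 9 other somatic types, 1 to 3 genes each, between −1.43 and 0.69.

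The genotype effect in these barcodes was set beside that in annotated early spermatids, the commonest nearest type (37.2% of the barcodes). In annotated early spermatids 151 of 9276 genes were called, 13 higher and 138 lower. The interaction test asks whether the effect differs between the sum of all the deep barcodes and annotated early spermatids. It called 0 of 11992 genes with edgeR (688 at an unadjusted p of 0.05) and 0 with DESeq2 (686). That sum mixes all the nearest types, in shares that varied between libraries, while the annotated cells are early spermatids alone. With the library as a block, which pairs the sums of each library, edgeR called 9 genes, all higher, with 2836 at an unadjusted p of 0.05. The main fit leaves out this pairing, so its 0 calls do not show that the effects are alike.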

How the data were processed

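Per the labels, testis cells were profiled with 10x Genomics 3′ v3 chemistry, and Cell Ranger 4.0.0 on the dm6 genome is named in the submitters' processing notes. The deposited counts are raw UMI counts per gene and barcode, 17612 genes in 6 matrices, not normalized. The authors' per-cell table gives their cell types and a mitochondrial percent of UMIs, made with Seurat (3.2.2 and 3.0 are named) after keeping 200 to 6000 genes. Barcodes, classes and lists were chosen with earlier results of these data known. Libraries held between 4772 and 7060 barcodes.

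Here barcodes of 6000 or more genes were given the annotated type with the highest Spearman correlation over the 7081 genes at 50 CPM or more in some type. Types under 20 cells in a library used the sum over libraries. UMIs were summed per library and tested with edgeR 4.0.16 (TMM, filterByExpr, quasi-likelihood F-test, Benjamini-Hochberg, R 4.3.3), with DESeq2 1.42.0 as an alternative. The scripts were tested on simulated data. Single values had exact two-sided permutation tests (scipy 1.17.1). Genes named are those of the lists, and the 10 called genes of largest change each way, without overlap and at 10 CPM or more in the higher group. p-values measure the spread between libraries of different age. Ages, from the labels, pair the libraries: deviations of same-age libraries correlated at 0.413, 0.472 and 0.289. Alternatives were other scalings and filters, a limit of 7000 genes, libraries left out, and subsets of barcodes.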

Additional observations from a re-analysis of the deposited data

Results flagged for a closer look

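Barcode sequences shared between libraries stood out as a signal that no comparison between genotypes measures. Of the 1041 barcodes with 6000 or more genes, 36.8% occurred in another library, where they always had fewer genes than the limit and were annotated as cells. In the chinmoST copies at 3–5 days, genes otherwise near 0 in that library (AstCC, CG43401, CG45072 and 3 lncRNA genes) summed to 128 CPM, against 1.35 CPM in its other annotated cells. In the reverse direction, 6 genes of the chinmoST library (Cyp4g1, Fst, Sfp60F, Sfp87B, EbpII and CG18180) stood at 13.2 CPM in the 45 wild-type copies, from 4 UMIs, against 1.27 CPM in the other cells. The cause was not tested.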

How the results depend on the processing

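The higher share of barcodes nearest GSCs/spermatogonia in chinmoST kept its direction under every alternative run. The difference in the share of barcodes with 6000 or more genes, 0.00244 percentage points, was −0.373 with a limit of 7000 genes and ran from −0.523 to 0.833 with 1 library left out. That for early spermatocytes ran from −4.79 to 0.446 with 1 library left out. That for late spermatids ran from −2.48 to 5.33, and was −2.68 with type profiles summed over libraries. The cyst-restricted level differed by 0.00673 without barcodes nearest a somatic type, against −0.585 with them. None of these differences passed a test. Against 118 genes called between genotypes, DESeq2 called 2151 (1698 higher), the later ages alone 5826 (4214 higher), barcodes nearest early spermatids alone 238 (35 higher), barcodes thinned to equal UMIs 32, and barcodes found in 1 library only 56. With 1 library left out the count ran from 31 to 4155. The cause of these moves was not tested. With age as a replicate block it was 142, of which 39 were higher against 14, and the interaction with annotated early spermatids called 9 genes with the library as a block against 0 without. Among the genes named and listed, the block changed no other call than the 5 given with the genes that rose and 1 heat shock gene, which it added. The subset without shared barcodes, that of the late germline and that without somatic barcodes were alternatives chosen after seeing the data. Over the 20 genes named, 270 values under alternatives kept their call, 106 lost it and 0 reversed. With 3 libraries per genotype no single-value test can pass 0.05.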

Other observations

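Summed over each library, the barcodes with 6000 or more genes were set beside annotated early spermatids, the commonest nearest type (37.2%). The sums also hold barcodes nearest GSCs/spermatogonia (24.7%), whose ribosomal protein genes summed to 325585 CPM in chinmoST. Since the gene limit chose the barcodes, these are levels with no test, as means over the 6 libraries. lncRNA:Hsromega, a stress-linked nuclear RNA, stood at 186 CPM against 6.68 CPM. Myc, a growth regulator, stood at 66.8 against 3.00 CPM, and eEF1alpha1, a translation elongation factor, at 1243 against 93.7 CPM. Of the 15 genes with the highest ratio, 8 encode ribosomal proteins, such as RpL7A at 613 against 41.7 CPM. The lowest ratios were those of ribosomal RNA pseudogene copies such as 28SrRNA-Psi:CR45859, at 111 against 1528 CPM, one of many near-identical copies, so its own level is uncertain. Sperm genes were also lower, with CG9016 at 3656 against 7292 CPM and Mst84Dc at 1857 against 3644 CPM.

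The genes with most UMIs in these barcodes were those of sperm formation. CG9920 led with a mean of 5573 CPM ± 1833 (SD over the 6 libraries), from 2755 in chinmoST at 9–11 days to 7554 in wild-type at 3–5 days. Mst84Db and Mst87F, which encode sperm tail proteins, stood at 3673 and 3209 CPM, and betaTub85D, the testis tubulin, at 2771 CPM. The 15 leading genes had log2 fold changes between −0.79 and −0.43 in chinmoST, none of which was called (edgeR adjusted p from 0.16 to 0.43).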
